A study of Rattus norvegicus with 8 samples.

Results

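The genes described here catabolise branched-chain amino acids and lysine, handle propionate and use ketone bodies, and they were followed in neonatal rat cardiomyocytes after knockdown of Echs1. The list was chosen with earlier results of these data known. It was a set of 33 gene symbols, taken by their place in these pathways and with no threshold on measured values. Of these, 31 symbols had at least 1 row in the expression table, which gave 32 of its 21017 rows, because Dhtkd1 had 2. Aldh4a1 was not analysed here, and methylmalonyl-CoA mutase was listed once, under its older symbol Mut. Levels are FPKM as the authors deposited them, a unit that scales fragments to transcript length and library size. In 30 of the 32 rows the mean over all libraries was at least 1 FPKM, and these rows were tested.

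Both groups were cardiomyocytes from rats of the strain labelled SD, in culture, with RNA collected 48 h after transfection. In the siECHS1 group the cells received an siRNA against Echs1, and in the siNC group the control siRNA, with 4 libraries in each. The Illumina TruSeq kit named in the labels' protocols does not mark the strand. The labels do not say whether the libraries of a group came from separate cultures, so p-values measure the spread between these libraries, which may be technical.

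Leucine, isoleucine and valine are first transaminated to keto acids by the branched-chain aminotransferases. The keto acids are then oxidised in mitochondria by the branched-chain keto acid dehydrogenase, which a kinase inhibits and a phosphatase reactivates. Each carbon skeleton next runs through its own arm of acyl-CoA steps. Leucine ends in acetoacetate and acetyl-CoA, isoleucine in acetyl-CoA and propionyl-CoA, and valine in propionyl-CoA, while lysine enters through glutaryl-CoA. Echs1, short-chain enoyl-CoA hydratase, acts in part of these arms, among them the valine arm, where it hydrates methacrylyl-CoA. The heart oxidises ketone bodies, which are cleaved to acetyl-CoA by a thiolase, Acat1, shared with isoleucine breakdown.

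The targeted gene was lower in every siECHS1 library. Echs1 (ENSRNOG00000047565) had 0.67, 0.444, 0.424 and 0.525 FPKM in siECHS1 libraries, against 1.66, 1.35, 1.18 and 1.12 FPKM in siNC libraries, and its mean was 38.8% of the siNC mean. A second row with the same protein match, LOC100911186 (ENSRNOG00000018522), averaged 3.38 ± 0.385 FPKM in siECHS1 and 6.61 ± 0.782 FPKM in siNC (SD, n = 4 each), or 51.1% of siNC. The groups did not overlap in either row, and an exact two-sided permutation test gave p = 0.0286 for each, the smallest that 4 libraries against 4 allow. Echs1 overlaps Zfp710, listed at a mean of 9.6 FPKM, and LOC100911186 overlaps Paox, listed at 15 FPKM, so reads of these neighbours may be among the values. The treatment of reads that fit both rows was not given in the sources used here. Echs1 itself lay under the expression filter. LOC100911186 lay above it and fell in the limma test described below (log2 change -0.80, SE 0.09, limma adjusted p = 0.000272). Each library held between 16915190 and 18197004 reads in listed genes, as recovered from the steps of the FPKM values.

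Of the 30 tested genes, 3 rose and 7 fell in siECHS1 cells, and 20 did not pass the test. Genes that rose were Dbt, Bcat1 and Acat1, and genes that fell were Abat, Bcat2, Bckdha, Ivd, Gcdh, Aldh6a1 and Bckdhb. Calls came from a two-sided limma test on log2(FPKM + 1), with p-values adjusted by the Benjamini-Hochberg method across the whole table of 12616 tested genes, at a threshold of 0.05. These 10 calls were 33.3% of the catabolic genes, while 21.0% of all genes tested passed, 8.83% upward and 12.2% downward. The groups did not overlap in 14 of the 30 genes, or 46.7%, against 25.2% of all genes tested. The siECHS1 libraries were the higher ones in 4 of the 30 genes, against 10.3% of all genes tested. They were the lower ones in 10 of the 30, against 14.9% of all genes tested. Without adjustment, 15 of the 30 had p under 0.05, as had 34.5% of all genes tested. These shares over all genes include low genes, from a mean of 1 FPKM upward. The rows of the list had a median level of 19.7 FPKM. With a filter of 5 FPKM, 1030 genes rose and 1445 fell among 9077 tested, a larger share than with the filter used here. The catabolic genes were not compared with genes of like level. The balance of rises and falls over all genes depended on the scaling: 1114 rose and 1541 fell as deposited, and 1288 rose and 1243 fell under median-of-ratios scaling, which gave 3 and 6 among the catabolic genes. The median log2 change was -0.09 over these genes and -0.01 over all genes tested, and 14 of the 20 genes without a call were lower in siECHS1. Most changes were small: apart from Dbt, Bcat1 and Abat, the called genes had siECHS1 means between 0.847 and 1.09 times those of siNC.

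Markers of cardiomyocytes were abundant, and markers of other cell types in the cultures moved with the comparison as well. The counts of marker calls below stand beside 8.83% of all genes tested that rose and 12.2% that fell. Cardiomyocyte markers summed to between 8237 and 9072 FPKM in siECHS1 libraries and between 8094 and 8356 FPKM in siNC libraries, and of 9 tested, Myh7 and Actc1 rose and Tnni3 and Myh6 fell. Fibroblast markers summed to between 3645 and 4015 FPKM in siECHS1 libraries and between 2795 and 2997 FPKM in siNC libraries, and of 7 tested, Col1a1, Col3a1, Dcn and Postn rose and Lum fell. Epicardial markers summed to between 37.9 and 42.0 FPKM in siECHS1 libraries and between 30.6 and 33.5 FPKM in siNC libraries, and of 4 tested, 1 rose and 1 fell. Erythroid markers summed to between 0.993 and 1.23 FPKM in siECHS1 libraries and between 1.73 and 2.14 FPKM in siNC libraries. These fibroblast, epicardial and erythroid sums did not overlap between the groups, but single genes made up most of each difference. Col1a1 averaged 2768 FPKM in siECHS1 and 2087 FPKM in siNC, while Tcf21 and Pdgfra had no call. Upk1b averaged 28.9 FPKM in siECHS1 and 21.4 FPKM in siNC, while Wt1 fell to 2.26 FPKM in siECHS1, against 3.06 FPKM in siNC. Alas2, under the filter, averaged 0.207 FPKM in siECHS1 and 0.697 FPKM in siNC. Sums of the other marker lists overlapped. Smooth muscle markers, of which 1 of 7 rose and 1 fell, reached 4122 to 4488 FPKM in siECHS1 and 4315 to 4411 FPKM in siNC. Endothelial markers, with no call among 6, reached 37.2 to 39.5 FPKM in siECHS1 and 34.6 to 38.8 FPKM in siNC. Macrophage markers, of which 1 of 4 rose and 1 fell, reached 29.9 to 34.3 FPKM in siECHS1 and 31.0 to 32.1 FPKM in siNC. Of that list, Cd68 averaged 11.3 FPKM in siECHS1 and 8.88 FPKM in siNC and rose, and Csf1r averaged 6.89 FPKM in siECHS1 and 9.12 FPKM in siNC and fell. Cd14 and Lyz2 were tested without a call, and C1qa was under the filter. Ptprc, Adgre1 and C1qb, defining leukocyte markers, were near 0 in both groups, and Hbb was listed at 0 in all siECHS1 libraries and in 3 of 4 siNC libraries, with 1 read in siNC replicate 2. The part of these other cells in the values of the catabolic genes was not tested. In bulk RNA, fewer cells of a type and less RNA per cell cannot be told apart.

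**Figure D1:**
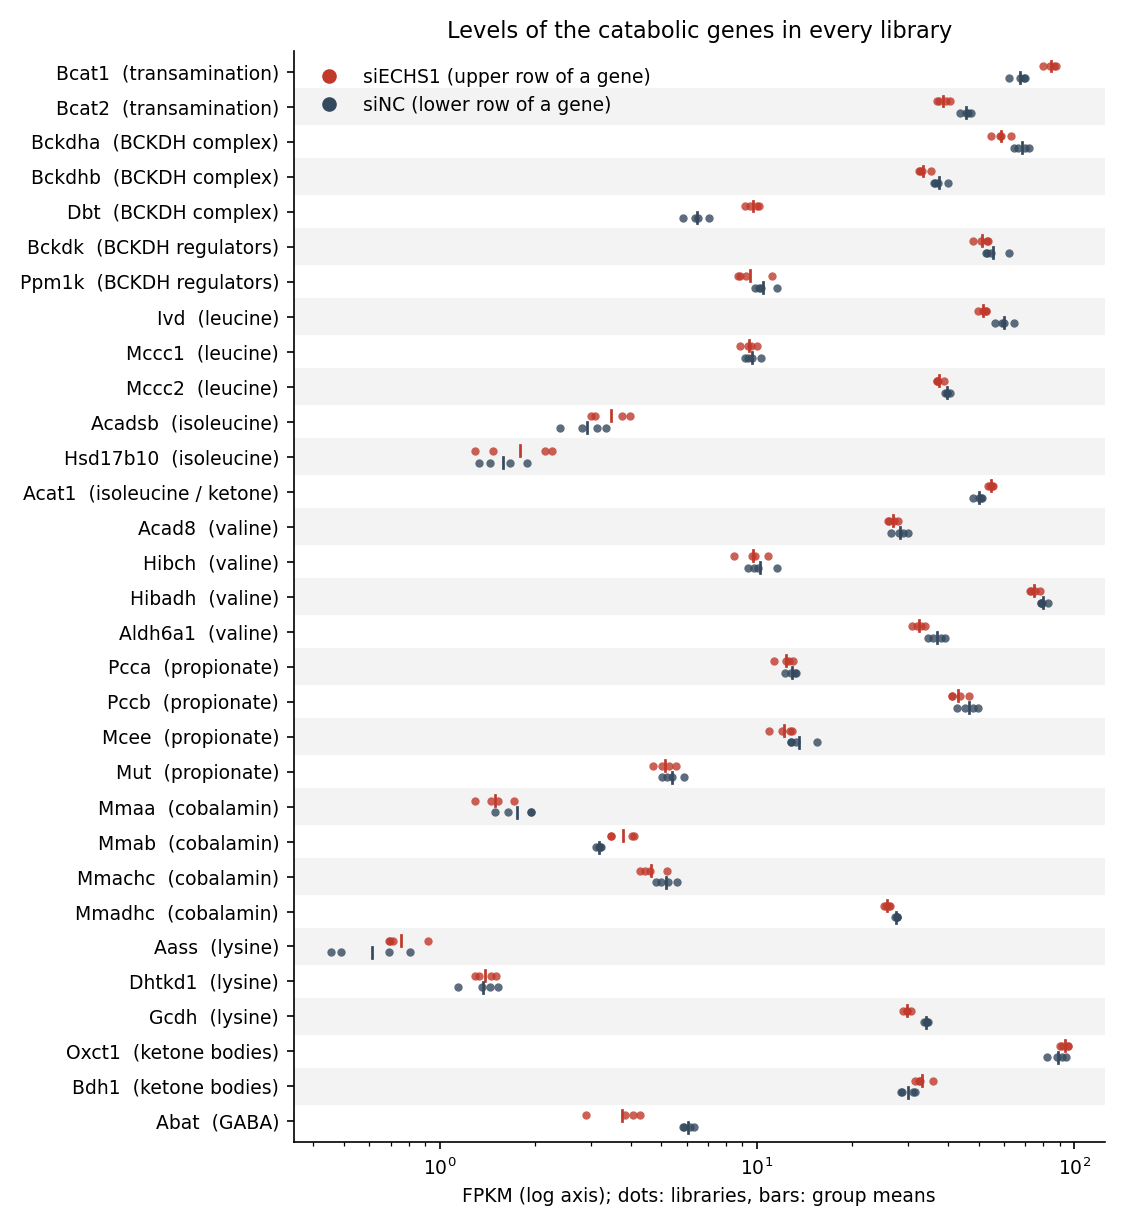
FPKM on a log axis for the pathway genes that had a mean above 0.5 FPKM, with a dot for each of the 4 siECHS1 libraries (upper row of a gene) and 4 siNC libraries (lower row), and a bar at each group mean. Levels span from under 1 FPKM for Aass to about 93.3 FPKM for Oxct1 in siECHS1, and the groups separate visibly in Bcat1, Bcat2, Dbt, Gcdh and Abat.

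The levels themselves covered a wide range. Oxct1, succinyl-CoA:3-oxoacid CoA transferase, which activates acetoacetate, averaged 93.3 ± 2.63 FPKM in siECHS1 and 89.0 ± 5.15 FPKM in siNC (SD, n = 4 each), and had the highest mean over all libraries. Hibadh and Bcat1 followed. At the low end stood Hsd17b10, Mmaa, Dhtkd1 and Aass, each with a mean under 2 FPKM.

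The branched-chain aminotransferases moved in opposite directions. Bcat1 (ENSRNOG00000015514, chr4:179259308-179339795, minus strand, as the table lists it) encodes the cytosolic isoform. It had 79.8, 84.0, 87.8 and 86.4 FPKM in siECHS1 libraries, against 62.2, 67.6, 69.9 and 69.5 FPKM in siNC libraries. All 4 siECHS1 libraries lay above all 4 siNC libraries, a 1.26-fold rise (log2 change 0.32, SE 0.05, limma adjusted p = 0.000913). Bcat2 (ENSRNOG00000020956, chr1:101554642-101572080, plus strand) encodes the mitochondrial isoform, the main aminotransferase of muscle and heart. It had 37.1, 39.3, 37.6 and 40.6 FPKM in siECHS1 libraries, against 43.5, 46.2, 45.5 and 47.4 FPKM in siNC libraries. Here all 4 siECHS1 libraries lay below all 4 siNC libraries, and the level fell to 0.847 of siNC (log2 change -0.23, SE 0.04, limma adjusted p = 0.00308). The ratio of Bcat1 to Bcat2 FPKM was 2.15, 2.13, 2.33 and 2.13 in siECHS1 libraries, against 1.43, 1.46, 1.54 and 1.47 in siNC libraries. Both calls held in every alternative run.

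The keto acid dehydrogenase showed the same split within 1 enzyme complex. Dbt (ENSRNOG00000015029, chr2:219563783-219592650, plus strand) encodes the lipoyl-bearing transacylase core. It had 10.1, 9.98, 9.16 and 9.51 FPKM in siECHS1 libraries, against 7.05, 6.36, 5.86 and 6.54 FPKM in siNC libraries. Its lowest siECHS1 library lay above its highest siNC library, and its log2 change of 0.52 (SE 0.06, 95% interval 0.39 to 0.66, limma adjusted p = 0.000312) was the largest rise in the list. Bckdha (ENSRNOG00000020607, chr1:82423277-82452281, minus strand) and Bckdhb (ENSRNOG00000009928, chr8:91464229-91656134, plus strand) encode the alpha and beta subunits of the decarboxylase that precedes the core.

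Bckdha had 58.7, 54.7, 58.5 and 63.5 FPKM in siECHS1 libraries, against 64.6, 70.2, 66.7 and 72.2 FPKM in siNC libraries. Every siECHS1 library was below every siNC library, and the log2 change was -0.22 (SE 0.05, limma adjusted p = 0.0136). Bckdhb had 33.2, 32.6, 32.4 and 35.4 FPKM in siECHS1 libraries, against 36.4, 36.1, 37.2 and 40.2 FPKM in siNC libraries. Its groups did not overlap either, with a log2 change of -0.16 (SE 0.05, limma adjusted p = 0.0285). The Bckdhb call was less firm: it was lost when siECHS1 replicate 1, 2 or 3 or siNC replicate 3 or 4 was left out, and under median-of-ratios scaling, with adjusted p between 0.00912 and 0.0793 over all alternatives.

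Within the complex, the ratio of Dbt to Bckdha FPKM was 0.165 ± 0.0149 in siECHS1 and 0.0945 ± 0.00978 in siNC (SD, n = 4 each), with no overlap between libraries. The ratio of Bckdhb to Bckdha was 0.568 ± 0.0194 in siECHS1 and 0.548 ± 0.0226 in siNC, and these ranges overlapped. These ratios are descriptions of the genes above and carry no test of their own. Neither regulator passed. The kinase Bckdk averaged 51.4 ± 2.47 FPKM in siECHS1 and 55.7 ± 4.41 FPKM in siNC (SD, n = 4 each; log2 change -0.11, 95% interval -0.24 to 0.01, limma adjusted p = 0.189). The phosphatase Ppm1k averaged 9.48 ± 1.15 FPKM in siECHS1 and 10.5 ± 0.745 FPKM in siNC (log2 change -0.13, 95% interval -0.31 to 0.04, limma adjusted p = 0.261). A ratio of Bckdk to Ppm1k of 5.49 ± 0.801 in siECHS1 stood beside 5.35 ± 0.716 in siNC.

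**Figure D2:**
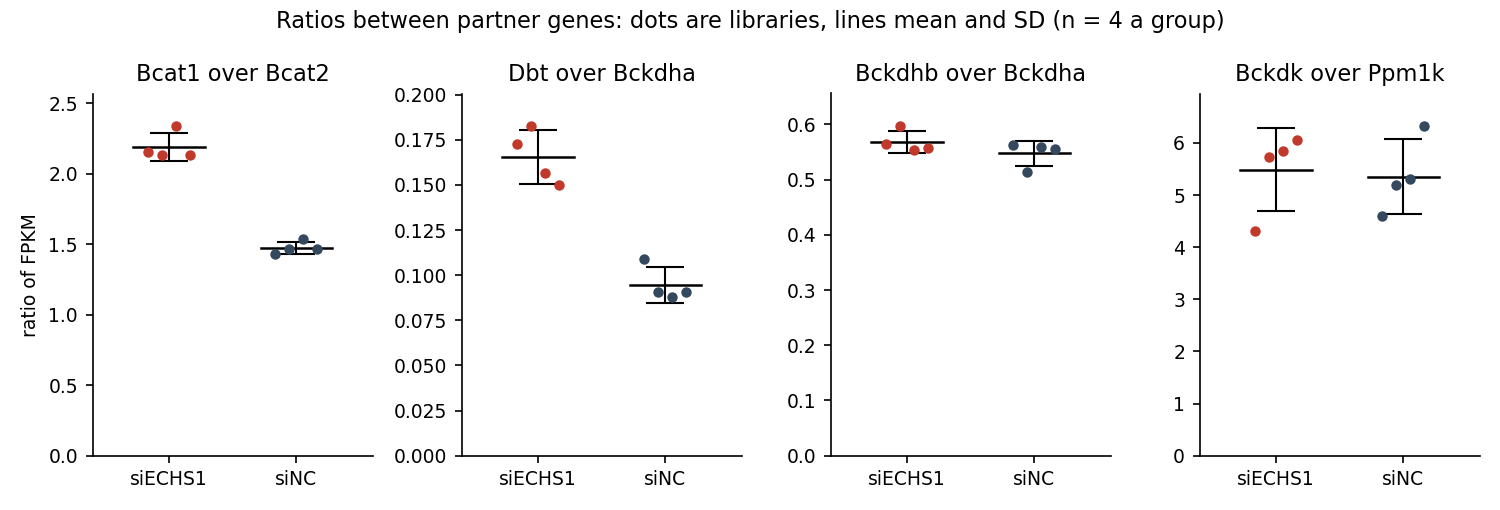
Ratio of the FPKM of partner genes in each library, with siECHS1 left and siNC right, and lines at the mean and SD (n = 4 each). Bcat1 over Bcat2 and Dbt over Bckdha separate the groups, while Bckdhb over Bckdha and Bckdk over Ppm1k overlap.

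The promoters of Bcat1, Bcat2 and Dbt are shown because these genes, adjacent in the pathway, moved in different directions. Each run covers 250 bases before to 50 bases after the gene's start, from RefSeq on the build GRCr8, read along the gene's strand: chr4:179777239-179777538 on the minus strand, chr1:105178889-105179188 on the plus strand and chr2:207166410-207166709 on the plus strand. Capitals mark the CCAAT box (CCAAT or ATTGG) and the GC box (GGGCGG or CCGCCC).
Bcat1: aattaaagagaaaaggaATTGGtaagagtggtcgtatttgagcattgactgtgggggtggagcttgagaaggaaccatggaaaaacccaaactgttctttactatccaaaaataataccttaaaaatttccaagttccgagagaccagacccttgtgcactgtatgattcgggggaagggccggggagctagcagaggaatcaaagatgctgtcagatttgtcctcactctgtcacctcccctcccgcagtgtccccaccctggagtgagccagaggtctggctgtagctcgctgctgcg
Bcat2: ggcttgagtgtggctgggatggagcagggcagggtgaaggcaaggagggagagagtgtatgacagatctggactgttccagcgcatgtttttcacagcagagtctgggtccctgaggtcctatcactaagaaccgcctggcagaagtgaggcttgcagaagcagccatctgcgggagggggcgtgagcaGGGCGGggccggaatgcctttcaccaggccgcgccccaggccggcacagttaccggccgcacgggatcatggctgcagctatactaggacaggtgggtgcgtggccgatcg
Dbt: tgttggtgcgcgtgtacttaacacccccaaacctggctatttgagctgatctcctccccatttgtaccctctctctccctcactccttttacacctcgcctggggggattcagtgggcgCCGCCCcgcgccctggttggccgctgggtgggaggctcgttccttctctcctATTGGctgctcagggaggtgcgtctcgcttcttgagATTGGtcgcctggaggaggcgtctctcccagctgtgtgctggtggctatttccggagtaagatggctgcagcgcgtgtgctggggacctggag
The Bcat1 window held a CCAAT box and no GC box, the Bcat2 window a GC box and no CCAAT box, and the Dbt window both. Promoter windows were found for 27 of the 31 symbols; those of Bckdha, Ppm1k, Mccc2 and Abat were not among them. Searched on both strands, a CCAAT box lay in 18 of the 27 windows, or 66.7%, against 38.0% of 21851 windows of protein-coding genes of the same length. GGGCGG lay in 21 of the 27, or 77.8%, against 41.8%. Among called genes with a window, a CCAAT box lay in 3 of 3 that rose and in 4 of 5 that fell. A GC box lay in 2 of 3 that rose and in 4 of 5 that fell. Aldh6a1, which fell, had CCAAT boxes and no GC box, the same pattern as Bcat1. The median share of G and C was 58.3% in the 27 windows, against 55.0% for protein-coding genes, and Bcat1 had the lowest share, 49.3%. The median number of CG dinucleotides was 16 in the 27 windows, against 11 for protein-coding genes. The motif TGATGNAAN, the composite element of ATF4 and C/EBP factors, and the TATA motif TATAAA had no match in the 27 windows, against 3.34% and 13.0% of the coding windows. AAGGTCA, the core site of estrogen-related receptors, was found only at Mcee among the 27, and the E-box CACGTG only at Dhtkd1. These are matches of letters in a window, not measured binding. The 21851 coding windows were not limited to genes expressed in these cells, so the shares were not compared with those of expressed genes.

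In the leucine arm, 1 of 3 genes passed, beside 21.0% of all genes tested. Counts of so few genes, here and in the steps below, were not compared with that share by a test. Ivd (ENSRNOG00000009421, chr3:110669312-110690173, plus strand), isovaleryl-CoA dehydrogenase, catalyses the first step particular to leucine. It had 52.6, 49.6, 51.7 and 52.9 FPKM in siECHS1 libraries, against 56.1, 59.9, 59.3 and 64.5 FPKM in siNC libraries. The groups did not overlap and Ivd fell to 0.862 of siNC (log2 change -0.21, SE 0.04, limma adjusted p = 0.00835). The subunits of methylcrotonyl-CoA carboxylase, which acts next, did not pass. Mccc2 had values of 36.8 to 38.9 FPKM in siECHS1 libraries and 39.3 to 40.6 FPKM in siNC libraries, without overlap (limma adjusted p = 0.0935), and passed only without siECHS1 replicate 4 (0.0476). Mccc1 averaged 9.47 ± 0.482 FPKM in siECHS1 and 9.63 ± 0.51 FPKM in siNC (SD, n = 4 each; log2 change -0.02, 95% interval -0.14 to 0.10). Mccc1 overlaps Dcun1d1 on the same strand, which was listed at a mean of 3.29 FPKM.

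In the isoleucine arm, the thiolase Acat1 (ENSRNOG00000007862, chr8:58166990-58195884, minus strand) rose. This enzyme makes the last cleavage of isoleucine breakdown and also splits acetoacetyl-CoA in ketone body use. It had 54.2, 55.2, 53.4 and 55.6 FPKM in siECHS1 libraries, against 50.1, 51.1, 48.1 and 50.7 FPKM in siNC libraries. The groups did not overlap, but the difference was only 1.09-fold (log2 change 0.13, SE 0.03, limma adjusted p = 0.0235). The call was lost without siECHS1 replicate 2, without siNC replicate 3 and without the variance trend, with adjusted p between 0.0112 and 0.0712 over all alternatives. Acadsb, the short/branched-chain acyl-CoA dehydrogenase, had 3.46 ± 0.49 FPKM in siECHS1 and 2.92 ± 0.41 FPKM in siNC (SD, n = 4 each; log2 change 0.18, 95% interval -0.04 to 0.41), and did not pass. Hsd17b10, the hydroxyacyl-CoA dehydrogenase of this arm, had a wide interval of -0.18 to 0.38 (limma adjusted p = 0.609). It rested on 120 reads in siECHS1 and 103 in siNC over the 4 libraries of each group, and overlaps Ribc1.

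In the valine arm, 1 of 4 genes passed, beside 21.0% of all genes tested. This was Aldh6a1 (ENSRNOG00000011419, chr6:108146582-108167185, minus strand), methylmalonate semialdehyde dehydrogenase, which closes the arm. It had 33.9, 33.0, 31.9 and 30.8 FPKM in siECHS1 libraries, against 39.1, 37.9, 35.8 and 34.5 FPKM in siNC libraries. All siECHS1 libraries were below all siNC libraries, and the log2 change was -0.18 (SE 0.05, limma adjusted p = 0.0234). Leaving out siECHS1 replicate 3 or siNC replicate 1 or 2 ended the call, with adjusted p between 0.000953 and 0.0636 over all alternatives. Aldh6a1 overlaps Bbof1 on the other strand, which was listed at a mean of 0.128 FPKM.

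The steps on either side of the hydratase in this arm did not pass. Acad8, isobutyryl-CoA dehydrogenase, which makes the substrate of the hydratase, averaged 26.8 ± 0.879 FPKM in siECHS1 and 28.4 ± 1.49 FPKM in siNC (SD, n = 4 each; log2 change -0.08, 95% interval -0.18 to 0.02). Hibch, the hydrolase that takes its product, averaged 9.70 ± 0.976 FPKM in siECHS1 and 10.2 ± 0.947 FPKM in siNC (log2 change -0.07, 95% interval -0.24 to 0.11). Hibadh, the dehydrogenase after it, ran between 72.8 and 78.0 FPKM in siECHS1 libraries and between 78.8 and 82.9 FPKM in siNC libraries. Its groups did not overlap, yet it missed the threshold (limma adjusted p = 0.0726) and passed only when siECHS1 replicate 4 was left out (0.0319).

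**Figure D3:**
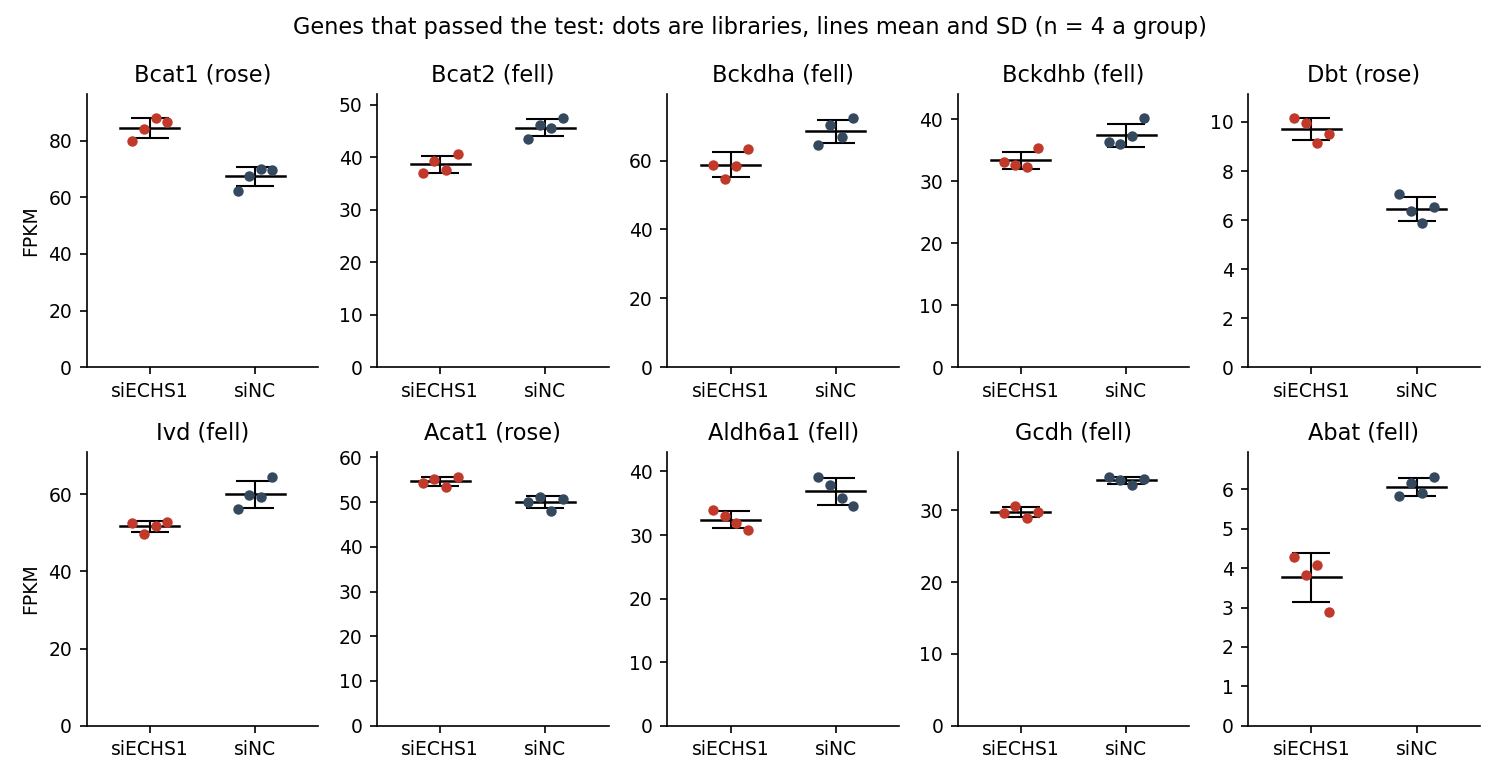
FPKM in every library for the 10 genes that passed the test, with siECHS1 left and siNC right, dots for libraries and lines for the mean and SD (n = 4 each); axes start at 0. In each panel the groups do not overlap, and Dbt and Abat show the widest relative gaps.

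No gene of propionate handling or of cobalamin handling passed, with 4 genes tested in each, beside 21.0% of all genes tested. Pcca and Pccb, the subunits of propionyl-CoA carboxylase, Mcee, the epimerase, and Mut, the cobalamin-dependent mutase that forms succinyl-CoA, all had lower means in siECHS1, with log2 changes between -0.15 and -0.06. Mcee came closest by size, at 12.1 ± 0.903 FPKM in siECHS1 and 13.6 ± 1.26 FPKM in siNC (SD, n = 4 each; limma adjusted p = 0.163). Of the 4 genes that process cobalamin, Mmab, the adenosyltransferase that makes the mutase's cofactor, had 3.47, 3.48, 4.11 and 4.03 FPKM in siECHS1 libraries, against 3.23, 3.20, 3.18 and 3.11 FPKM in siNC libraries. These groups did not overlap, but the adjusted p was 0.0737 with limma. Mmadhc, a trafficking protein of the cofactor, lay between 25.2 and 26.4 FPKM in siECHS1 libraries and between 27.1 and 27.6 FPKM in siNC libraries, again without overlap and without a call (limma adjusted p = 0.0909). Mmaa and Mmachc averaged 1.5 ± 0.177 and 4.64 ± 0.405 FPKM in siECHS1, and 1.76 ± 0.223 and 5.15 ± 0.34 FPKM in siNC.

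Of the lysine genes, 1 of 2 tested passed, beside 21.0% of all genes tested. Gcdh (ENSRNOG00000003307, chr19:26000497-26006970, minus strand), glutaryl-CoA dehydrogenase, had 29.7, 30.7, 28.9 and 29.8 FPKM in siECHS1 libraries, against 34.7, 34.2, 33.6 and 34.4 FPKM in siNC libraries. The libraries within each group were tightly placed and the groups did not overlap, with a fall to 0.87 of siNC (log2 change -0.19, SE 0.03, limma adjusted p = 0.0029). Gcdh overlaps Syce2 on the other strand, which was listed at a mean of 5.51 FPKM, and reads of the overlap cannot be told apart without strand. Dhtkd1, a subunit of the oxoadipate dehydrogenase before it, averaged 1.39 ± 0.101 FPKM in siECHS1 and 1.37 ± 0.164 FPKM in siNC (SD, n = 4 each). The other Dhtkd1 row was listed at 0 in 7 libraries and held 1 read in siNC replicate 1, and was not tested. Aass, which opens the pathway, lay under the filter. It had 0.715, 0.69, 0.699 and 0.919 FPKM in siECHS1 libraries, against 0.808, 0.488, 0.691 and 0.453 FPKM in siNC libraries, and the groups overlapped.

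The ketone body genes had higher means in siECHS1, but of 3 only Acat1, described above, passed, beside 21.0% of all genes tested. Bdh1, which interconverts hydroxybutyrate and acetoacetate, had 32.5, 31.4, 32.8 and 35.9 FPKM in siECHS1 libraries, against 28.7, 31.4, 31.0 and 28.5 FPKM in siNC libraries. The groups met at 31.4 FPKM, and limma gave a log2 change of 0.14 (95% interval 0.03 to 0.25, adjusted p = 0.0695). Oxct1 had a log2 change of 0.07 (95% interval -0.03 to 0.17, limma adjusted p = 0.308).

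Abat (ENSRNOG00000002636, chr10:7093405-7200499, minus strand) showed the largest fall. It encodes the mitochondrial transaminase of GABA, which also acts on an amino acid derived from the valine arm. It had 4.27, 3.83, 4.07 and 2.89 FPKM in siECHS1 libraries, against 5.84, 6.17, 5.90 and 6.32 FPKM in siNC libraries. Every siECHS1 library was below every siNC library, siECHS1 replicate 4 was the lowest, and the mean was 62.1% of siNC (log2 change -0.58, SE 0.09, limma adjusted p = 0.00171). The values rested on 713 reads in siECHS1 and 1115 reads in siNC over the 4 libraries of each group. Abat, Bcat1, Bcat2, Bckdha, Dbt, Ivd and Gcdh kept their calls in every alternative run.

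**Figure D4:**
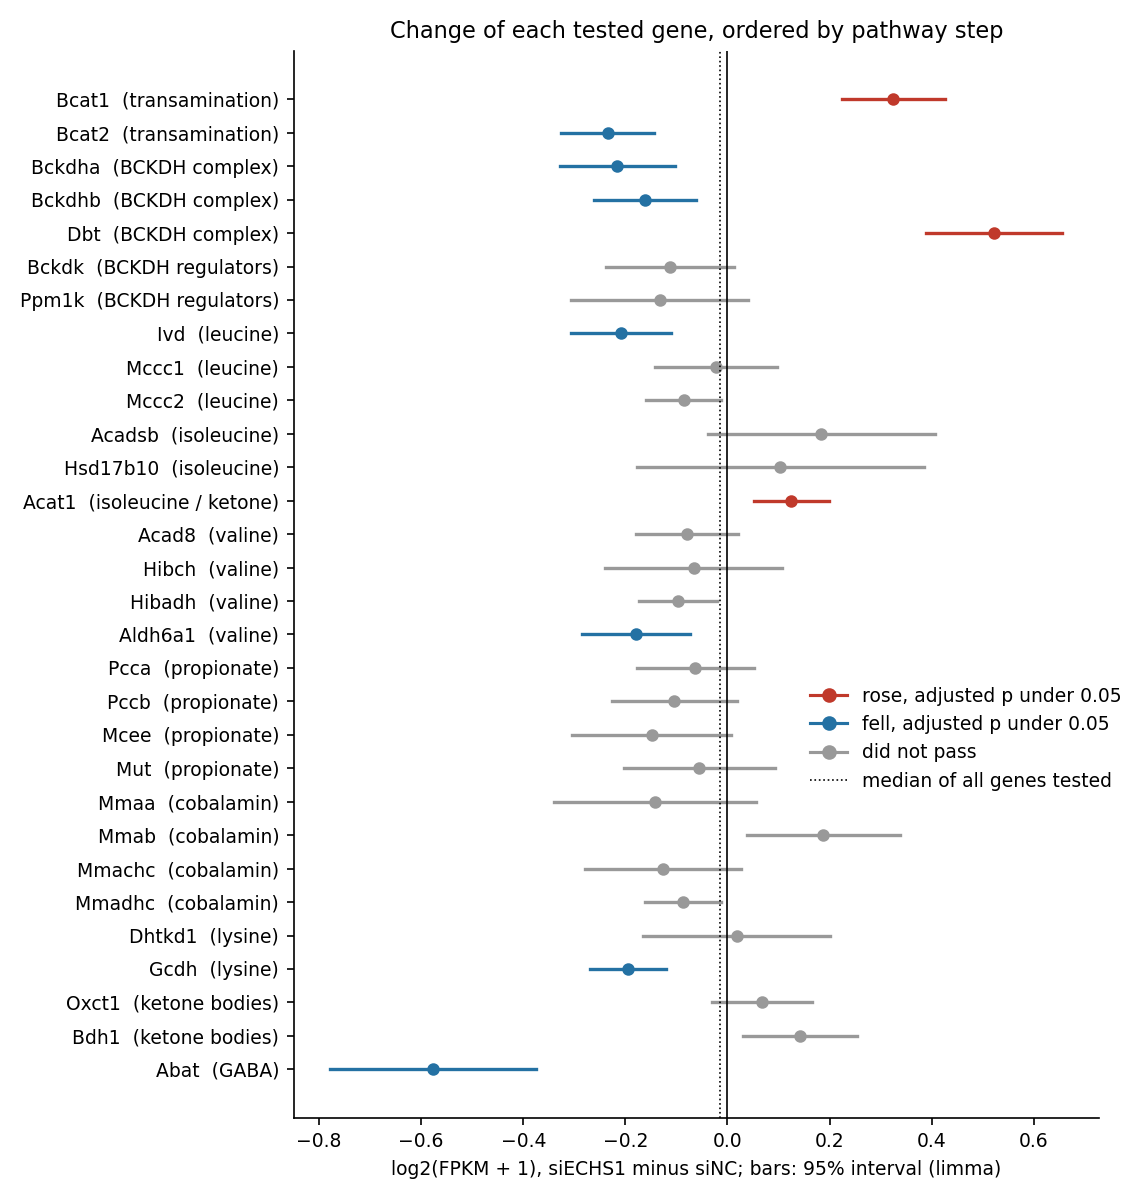
Change of each of the 30 tested genes on the log2(FPKM + 1) scale, siECHS1 minus siNC, with 95% intervals from limma, in the order of the pathway steps; the dotted line is the median of all genes tested, -0.01. Dbt at 0.52 and Abat at -0.58 lie farthest from 0, and the propionate genes cluster between -0.15 and -0.06.

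**Figure D5:**
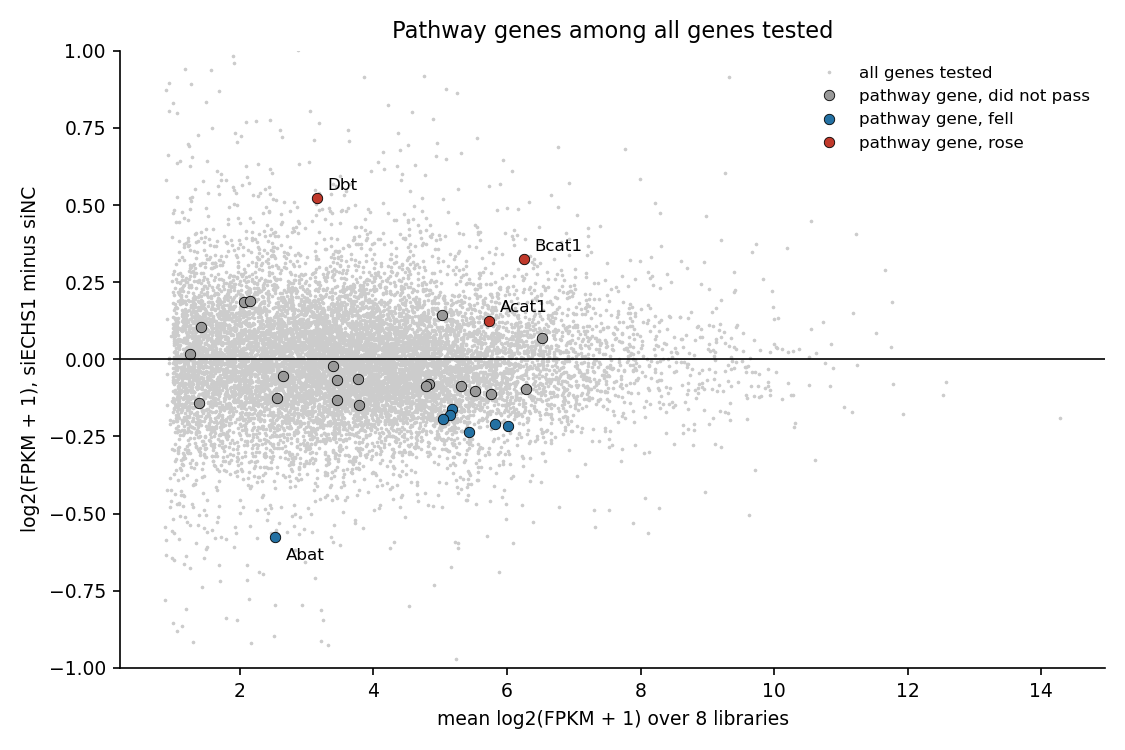
Change in log2(FPKM + 1), siECHS1 minus siNC, against the mean log2(FPKM + 1) over 8 libraries for all 12616 genes tested (small dots) and the 30 pathway genes (large dots); 21 genes outside the range of -1 to 1 are not drawn. Dbt, Bcat1 and Abat stand toward the edge of the cloud at their level, and most other pathway genes lie within it.

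Genes that serve these pathways without belonging to the list were read as a second, wider set of 59 symbols. It holds transporters, cofactor genes and neighbouring enzymes, and was also chosen with earlier results of these data known. Of the 50 that could be tested, 8 rose and 5 fell, again beside 8.83% and 12.2% of all genes tested, and 22 had an unadjusted p under 0.05, beside 34.5% of all genes at that threshold. Among transporters, Slc3a2, the heavy chain of the exchanger that carries large neutral amino acids, had 158, 163, 166 and 170 FPKM in siECHS1 libraries, against 126, 128, 134 and 132 FPKM in siNC libraries. Its log2 change was 0.34 (SE 0.03, limma adjusted p = 0.000166), and the groups did not overlap. Slc7a8, a light chain that pairs with it, rose by the same log2 change of 0.34 (limma adjusted p = 0.000444). Slc7a5, the other light chain of this kind in the list, averaged 76.1 FPKM in siECHS1 and 70.5 FPKM in siNC and did not pass (limma adjusted p = 0.185).

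Lipoic acid is carried by the Dbt protein. Of 4 tested genes in the list of lipoylation and the shared subunit, 1 rose, beside 8.83% of all genes tested: Lipt2, an octanoyltransferase. Lias, Gcsh and Dld, the shared dehydrogenase subunit, did not pass (limma adjusted p = 0.696, 0.0916 and 0.461), and Lipt1 was under the filter. Lipt2 had 3.03, 3.79, 3.08 and 4.31 FPKM in siECHS1 libraries, against 2.17, 1.87, 2.71 and 1.63 FPKM in siNC libraries (log2 change 0.56, SE 0.12, limma adjusted p = 0.00987). In lysine breakdown, Aadat, an aminoadipate aminotransferase, rose to 5.68 ± 0.133 FPKM in siECHS1, against 4.20 ± 0.182 FPKM in siNC (SD, n = 4 each; log2 change 0.36, limma adjusted p = 0.00122). Dlst, the succinyltransferase shared by the oxoglutarate and oxoadipate dehydrogenases, fell to 89.0 ± 0.618 FPKM in siECHS1, against 104 ± 0.773 FPKM in siNC (log2 change -0.23, limma adjusted p = 0.00035). Gpt2, an alanine transaminase, and Pycr1, of proline synthesis, rose with log2 changes of 0.24 and 0.21 (limma adjusted p = 0.0135 and 0.0168).

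Of 7 tested genes listed under hydratase and thiolase steps, Acads and Hadhb fell, beside 12.2% of all genes tested. The other 5 did not pass, and 2 of these had higher values in siECHS1. Acads, short-chain acyl-CoA dehydrogenase, averaged 47.6 ± 1.47 FPKM in siECHS1 and 54.3 ± 3.18 FPKM in siNC (SD, n = 4 each; log2 change -0.19, limma adjusted p = 0.0165). Hadhb, the thiolase subunit of the trifunctional protein, averaged 170 ± 2.91 FPKM in siECHS1 and 191 ± 8.43 FPKM in siNC (log2 change -0.16, limma adjusted p = 0.0111). Among biotin genes, Slc5a6, a vitamin transporter, fell (log2 change -0.19, limma adjusted p = 0.0141), and Hlcs, which attaches biotin to the carboxylases, had a log2 change of 0.31 (limma adjusted p = 0.031) that lost its call when siECHS1 replicate 1, 2 or 3 or siNC replicate 2, 3 or 4 was left out, and without the filter.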

How the data were processed

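RNA-seq of 8 libraries was analysed from the table of FPKM values that the authors deposited, which has a column for each library and Ensembl gene identifiers of the rat in its rows. The submitters' processing notes name Bowtie 0.12.2 and, with no role stated, Rnor_6.0 and mm8. The counting tool, annotation and treatment of reads with several matches was not given in the sources used here. Gene coordinates are those of the table. Rows whose 8 libraries averaged 1 FPKM or more were tested on log2(FPKM + 1) with limma 3.58.1 (R 4.3.3) and a variance trend, with Benjamini-Hochberg adjustment across them. Folds are ratios of mean FPKM, and log2 changes are on the log2(FPKM + 1) scale, which understates changes of low genes. Low FPKM values step in whole reads, and 100% of values came out whole within 0.01 of a read; these reads state depth and serve the added voom alternative. Precision is limited by this depth and by 4 libraries a group. Within groups, all library pairs differed by more than counting noise. Scripts were tested on simulated data. The member genes and the wider lists were chosen with earlier results of these data known. Values in every library are given for members past the threshold or under the filter. Up to 12 genes of the wider list past the threshold were named by size of change, which left out Oat, and 1 of them is not reported here; Slc7a5, Lias, Gcsh, Dld and Lipt1 were added after their values were seen. Python 3.11.15, pandas 2.3.3, scipy 1.17.1 and matplotlib 3.10.9 were used.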

Additional observations from a re-analysis of the deposited data

Results flagged for a closer look

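In 4 of the 92 groups of 4 libraries examined, 1 library stood apart from the other three by Dixon's criterion; chance gives about 1 in 20 groups. Mccc2 had 38.9 FPKM in siECHS1 replicate 4, against 37.1 FPKM in the nearest siECHS1 library. Aass had 0.919 FPKM in siECHS1 replicate 4, with the nearest siECHS1 library at 0.715 FPKM. Hibadh had 82.9 FPKM in siNC replicate 2, with the nearest siNC library at 79.2 FPKM. Mmadhc had 27.1 FPKM in siNC replicate 4, with the nearest siNC library at 27.5 FPKM. None of these genes passed the test.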

How the results depend on the processing

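Over 533 alternatives run on the 30 tested genes singly, 510 kept direction and side of the threshold, 12 lost a call (Bckdhb, Acat1 and Aldh6a1, given with those genes) and 7 gained one. Gains not given above were Bdh1 under quantile normalization (adjusted p = 0.0325, limma), Mmab without the variance trend (0.0425), and Bdh1, Mmab and Bckdk under voom with the replicate block. Log2 changes of Mccc1 ran from -0.0472 to 0.00918 and those of Dhtkd1 from -0.0289 to 0.0497 as each library was left out, and turned their sign: Mccc1 to 0.00618 without siECHS1 replicate 3 and 0.00918 without siNC replicate 2, Dhtkd1 to -0.0045 without siECHS1 replicate 1 and -0.0289 without siNC replicate 4. Among the tested catabolic genes, leaving out each library gave 2 to 3 that rose and 5 to 9 that fell. The replicate block gave 3 that rose and 7 that fell, and 1283 and 1669 over all genes, beside 1114 and 1541 without it. Same-numbered libraries had correlations of deviations of 0.173, -0.0507, 0.00719 and 0.075, and not every library correlated best with its own number, so the numbers were not taken as pairs. Voom on recovered reads, chosen after seeing the data, gave with the replicate block 5 that rose and 8 that fell here and 14 and 8 in the wider list. With a filter of 5 FPKM, 5 of the wider list rose, with fewer genes tested; Echs1 and LOC100911186 have no value there. Tested without the filter, both rows were lower in siECHS1 with an adjusted p under 0.05 in every alternative that gave a value. The log2 change of Echs1 was -0.62 with 1 FPKM added, -1.22 with 0.1 FPKM added and -1.34 under voom on reads.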
